A study of Mus musculus with 14 samples.

Results

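Transcript levels of 10 genes that handle iron and haem were read from RNA sequencing of mouse acute myeloid leukaemia cells. The genes were chosen by symbol and were Hmox1, Hmox2, Fth1, Ftl1, Tfrc, Slc40a1, Slc11a1, Slc11a2, Ireb2 and Aco1. All 10 were found in both deposited tables, among 13406 genes in the table of the doxycycline libraries and 14563 genes in the table of the transduced libraries, with 12678 gene symbols in both. The leukaemias were raised in lethally irradiated congenic mice (strain C57/BL6) from foetal liver cells carrying a Tet-Off retroviral vector for the fusion oncogene MLL-AF9 with a dRED reporter, and another vector for NRAS G12D with the Tet-responsive activator, and leukaemia cells were collected from spleens once the animals were ill. One set held 4 doxycycline libraries, from leukaemia cells cultured for 4 days with doxycycline to switch MLL-AF9 off, and 4 untreated libraries, in pairs that share a label in the titles. The other set held 3 Id2-GFP libraries and 3 control-GFP libraries, from leukaemia cells that had received a retrovirus for Id2 and GFP, or its control with GFP, and were sorted for GFP 2 days later. All 14 libraries carried the Tet-Off MLL-AF9 and NRAS G12D vectors. No library had doxycycline without the MLL-AF9 switch, so the drug itself and the loss of MLL-AF9 cannot be told apart.

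Cells take up transferrin-bound iron through transferrin receptor 1, the product of Tfrc, and move iron out of endosomes through the divalent metal transporter encoded by Slc11a2. Iron not in use is stored in ferritin, a cage of heavy (Fth1) and light (Ftl1) chains, and leaves the cell through ferroportin, the product of Slc40a1. Haem oxygenases, the inducible Hmox1 and the constitutive Hmox2, open the haem ring and free its iron. Slc11a1 encodes NRAMP1, which pumps divalent metals out of the phagosome of macrophages and granulocytes. Aco1 and Ireb2 encode the iron regulatory proteins IRP1 and IRP2, which in iron-poor cells bind hairpins called iron-responsive elements. A hairpin bound in the 5′ UTR blocks translation of the transcript, and hairpins bound in the 3′ UTR of Tfrc protect the transcript from decay.

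Matches in the members to a strict pattern of the iron-responsive element are shown, because such elements tie genes to the products of Aco1 and Ireb2. UTRs of protein-coding transcripts in GENCODE M21 on GRCm38 were searched on the transcript strand for a bulged C, 5 letters, the loop CAGTGN or CAGAGN and 5 letters, with all 5 stem pairs formed, G with T allowed. Each line gives the matched element with 6 flanking bases on either side, 5′ to 3′, with the 6 loop letters in capitals.
Fth1 5′ UTR, chr19:9982732-9982760, plus strand: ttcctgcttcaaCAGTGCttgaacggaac
Ftl1 5′ UTR, chr7:45459779-45459807, minus strand: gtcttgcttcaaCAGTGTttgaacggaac
Slc40a1 5′ UTR, chr1:45925465-45925493, minus strand: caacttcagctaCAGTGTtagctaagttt
Tfrc 3′ UTR, chr16:32631160-32631188, plus strand: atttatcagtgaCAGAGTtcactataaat
Tfrc 3′ UTR, chr16:32631219-32631247, plus strand: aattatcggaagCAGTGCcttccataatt
Tfrc 3′ UTR, chr16:32631598-32631626, plus strand: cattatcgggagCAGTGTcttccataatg
Tfrc 3′ UTR, chr16:32631663-32631691, plus strand: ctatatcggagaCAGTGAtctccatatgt
Tfrc 3′ UTR, chr16:32631710-32631738, plus strand: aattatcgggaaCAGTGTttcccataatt
The 8 matches lay in 4 members, 5 of them in Tfrc and 1 each in Fth1, Ftl1 and Slc40a1. A match was found in 319 of 21901 protein-coding genes, or 1.46%. The other 6 members held no match to these letters in the annotated UTRs. An element with an interrupted stem or another loop would be missed, so the lack of a match does not show that a member has none. The libraries measure transcripts, so translation through the 5′ elements was not measured.

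The tabled genes took 17922644 to 25959766 reads in each library of the doxycycline set and 14051150 to 14948487 in each of the transduced set. Levels are CPM, reads over a scaled library size, and a change is a difference of log2 CPM ± its SE, with adjusted p from limma over all genes of a table and a threshold of 0.05. As a check of the labels, transcripts of Mll1, the gene of the MLL part of the fusion, ranged over 114 to 144 CPM in doxycycline libraries, against 1998 to 6369 CPM in untreated libraries, and those of Id2 over 952 to 1631 CPM in Id2-GFP libraries, against 25.8 to 51.5 CPM in control-GFP libraries. Myeloid markers were present in every library, whereas 1 of 17 listed erythroid symbols and 0 of 6 markers of T cells and natural killer cells were in the doxycycline table. In the transduced set, control-GFP replicate 3 stood apart from the other control-GFP libraries, with correlations of 0.913 and 0.938 across genes, and its 4 measured erythroid markers summed to 45.5 CPM, against 5.53 to 10.5 CPM in the other libraries of that set.

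After doxycycline, transcripts for ferritin, haem breakdown and phagosomal and cellular metal export were higher, and the transcript for transferrin receptor 1 was lower. Of the 10 members, 8 rose (Slc11a1, Fth1, Ftl1, Slc40a1, Hmox1, Hmox2, Slc11a2 and Aco1), 1 fell (Tfrc) and 1, Ireb2, did not pass the test. Over the table, 65.1% of genes passed, 31.3% higher and 33.8% lower in doxycycline libraries, so that passing the test in either direction was common among all genes. The median change of the members was 1.04 on the log2 scale, against -0.03 for all genes. The 4 doxycycline libraries lay wholly above the 4 untreated libraries for 8 members and wholly below for 1, where 28.9% and 31.1% of all genes did so. With libraries scaled by their total reads, the median of all genes moved to -0.27, the calls over the table split into 2702 higher and 6912 lower instead of 4198 and 4535, and 6 members rose and 2 fell. Labels of 3 pairs begin with TRIMA2 and that of replicate 4 with TRIMA1, and without replicate 4 the members' counts were 8 higher and 1 lower as before. Titles of doxycycline replicates 1, 2 and 4 also end in -R, whereas those of doxycycline replicate 3 and of the untreated libraries do not. What this suffix stands for was not established, and its part in the changes was not tested.

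Marker genes of mature myeloid cells rose with these members, and the 2 measured genes of a stromal list fell. In doxycycline libraries the 10 monocyte and macrophage markers summed to 28955 to 41357 CPM, against 4385 to 7467 CPM in untreated libraries, led by Lyz2, and 9 of them rose. Over the table, 31.3% of genes rose and 33.8% fell. For red pulp macrophages 8 of 10 listed symbols were measured, where Emr1 and Adgre1 name the same gene. These markers summed to 588 to 733 CPM in doxycycline libraries, against 124 to 209.5 CPM in untreated libraries, led by Emr1, and 7 rose. Of this list Spic was low but rose, with 5.02 ± 0.538 CPM in doxycycline libraries, against 3.73 ± 0.196 CPM in untreated libraries. Its change was 0.42 ± 0.11 (adjusted p = 0.0080 from limma), and Vcam1 was not in the table. Cd163, which did not pass, had 2.52 ± 1.43 and 2.53 ± 1.42 CPM, so the sum does not show red pulp macrophages in particular. The 10 neutrophil markers summed to 4492 to 10032 CPM in doxycycline libraries, against 929.6 to 2408 CPM in untreated libraries, and 8 rose while 1 fell. Rhd, the single erythroid marker in this table, had 2.09 to 3.37 CPM in doxycycline libraries, against 3.60 to 6.97 CPM in untreated libraries. The other 16 listed erythroid symbols, those of globins among them, were not in it. The 2 measured of 7 stromal markers, Pecam1 and Pdgfrb, summed to 76.4 to 111 CPM in doxycycline libraries, against 293 to 319.8 CPM in untreated libraries, led by Pecam1, and both fell. The collagen genes, Pdgfra and Cdh5 of that list were not in the table, so the 2 genes do not by themselves show stromal cells. Cd79b, the 1 measured of 5 B cell markers, did not pass. The part of these cells in the members' changes was not tested, and in bulk RNA a change in the share of a cell type and a change in RNA per cell cannot be told apart.

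Ferritin gave the largest amounts of RNA among the members. Fth1 (chr19:9980598-9985098) had 4762, 3843, 3999 and 4666 CPM in doxycycline replicates 1 to 4, against 746, 843, 786 and 823 CPM in untreated replicates 1 to 4. All doxycycline libraries were far above all untreated libraries, and the untreated libraries lay close together. The change was 2.43 ± 0.09, or 5.38-fold (adjusted p = 2.3e-07), with pair differences of 2.67, 2.19, 2.35 and 2.50 on the log2 scale. Ftl1 (chr7:45457944-45459884) had 1725, 1568, 1358 and 1810.5 CPM in doxycycline libraries, against 489.8, 406, 449.9 and 541 CPM in untreated libraries. Here too the groups did not overlap, and the pair with the highest level in one group, replicate 4, was also the highest in the other. The change of Ftl1 was 1.78 ± 0.11, or 3.42-fold (adjusted p = 1.2e-06), and every pair moved the same way. Together the Fth1 and Ftl1 rows took 0.501% to 0.586% of the reads in doxycycline libraries, against 0.135% to 0.146% in untreated libraries.

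The light chain has near-identical copies in the mouse genome, and the Ftl1 row held only a part of the reads counted over them. The annotation holds 7 sequences at least 90% identical to the Ftl1 coding sequence over at least 80% of its length, of which 5 were rows of the doxycycline table. The copy listed as Gm10116, 99.6% identical to Ftl1, had 260% to 275% of the Ftl1 reads in doxycycline libraries and 267% to 269.9% in untreated libraries. Reads that fit several copies can be split by the counting, so the level of Ftl1 itself is uncertain. Summed over Ftl1 and its copies, the light chain had 6661 ± 799 CPM in doxycycline libraries, against 1946 ± 240 CPM in untreated libraries (SD, n = 4 each), and the change of the sum was 1.775 ± 0.12 (adjusted p = 2.1e-06). This sum was chosen after the values were seen. Fth1 had 1 such copy, Gm6977, with 0.0847% to 0.157% of the Fth1 reads in this table.

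The exporter and the importer of iron moved in opposite directions. Slc40a1 (chr1:45908068-45926523) was the lowest of the members, with 10.8, 8.80, 7.75 and 14.1 CPM in doxycycline libraries, against 3.17, 3.68, 1.81 and 4.09 CPM in untreated libraries. Its groups were apart even though its spread was the widest of the members in either group. The change was 1.72 ± 0.27, or 3.29-fold (adjusted p = 3.6e-04), and the pairs differed by 1.76, 1.25, 2.08 and 1.78 on the log2 scale. Tfrc (chr16:32608920-32632794) had 58.3, 48.5, 61.9 and 55.2 CPM in doxycycline libraries, against 212, 185, 181 and 203 CPM in untreated libraries. It was the only member whose doxycycline libraries all lay below the untreated ones. Its change was -1.81 ± 0.08, or 3.49-fold lower (adjusted p = 3.3e-07), and the 4 pairs differed by -1.86, -1.93, -1.55 and -1.88 on the log2 scale.

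The NRAMP transporters differed in the size of their change. Slc11a1 (chr1:74375195-74386062), the phagosomal transporter, had 232, 217, 195 and 273 CPM in doxycycline libraries, against 28.4, 33.4, 28.8 and 37.5 CPM in untreated libraries. The lowest doxycycline library was several times the highest untreated one. Slc11a1 had the largest change of the 10 genes, 2.84 ± 0.12, or 7.15-fold (adjusted p = 2.4e-07), with pair differences of 2.70 to 3.03 on the log2 scale. Slc11a2 (chr15:100387898-100425072), the endosomal transporter, had 30.3, 31.5, 28.3 and 32.3 CPM in doxycycline libraries, against 27.0, 24.1, 22.8 and 23.9 CPM in untreated libraries. The gap between its groups was small. The change of Slc11a2 was 0.32 ± 0.07 (adjusted p = 0.0022), and it fell to 0.08 (adjusted p = 0.302) with libraries scaled by their total reads. Relative to the median of all genes the change was 0.35 under either scaling. The equality holds by construction, because library totals shifted all genes by the same amount.

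Both haem oxygenases rose, the inducible one more. Hmox1 (chr8:75093621-75100589) had 241, 248, 195 and 215 CPM in doxycycline libraries, against 79.97, 67.7, 76.5 and 87.5 CPM in untreated libraries. Every doxycycline library lay well above every untreated one. The change was 1.53 ± 0.10, or 2.88-fold (adjusted p = 1.2e-06), and the pairs differed by 1.59, 1.87, 1.35 and 1.30 on the log2 scale. Hmox2 (chr16:4726361-4766742) had 106, 95.3, 88.6 and 95.1 CPM in doxycycline libraries, against 68.2, 60.3, 61.7 and 72.6 CPM in untreated libraries. Its groups were apart, by less than those of Hmox1. The change of Hmox2 was 0.55 ± 0.07, or 1.46-fold (adjusted p = 1.3e-04). Exons of Hmox2 overlap those of Cdip1 on the opposite strand, and the strand used in counting is not given in the sources used here. Cdip1 had 24.1 to 27.1 CPM in doxycycline libraries, against 16.4 to 20.7 CPM in untreated libraries (change 0.45 ± 0.08, adjusted p = 0.0010), and its part in the Hmox2 row was not tested.

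Transcripts of the iron regulatory proteins moved little. Ireb2 (chr9:54863789-54912530) had 96.3, 89.3, 96.8 and 101 CPM in doxycycline libraries, against 98.9, 97.3, 90.1 and 94.6 CPM in untreated libraries. The groups overlapped fully, and 2 pairs were higher and 2 lower with doxycycline. The difference was 0.01 ± 0.05, with a 95% interval of -0.10 to 0.12 (adjusted p = 0.865). With library totals the value for Ireb2 was -0.23 and passed (adjusted p = 0.0015). Relative to the median of all genes it was 0.04 under either scaling, equal by construction. Aco1 (chr4:40143081-40198338) had 58.0, 60.2, 56.3 and 60.8 CPM in doxycycline libraries, against 47.4, 46.4, 49.1 and 50.2 CPM in untreated libraries. The groups were narrow and apart. The change of Aco1 was 0.29 ± 0.05 (adjusted p = 4.1e-04) as deposited and 0.05 (adjusted p = 0.395) with library totals. It was 0.31 above the median of all genes under either scaling, again equal by construction.

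**Figure D1:**
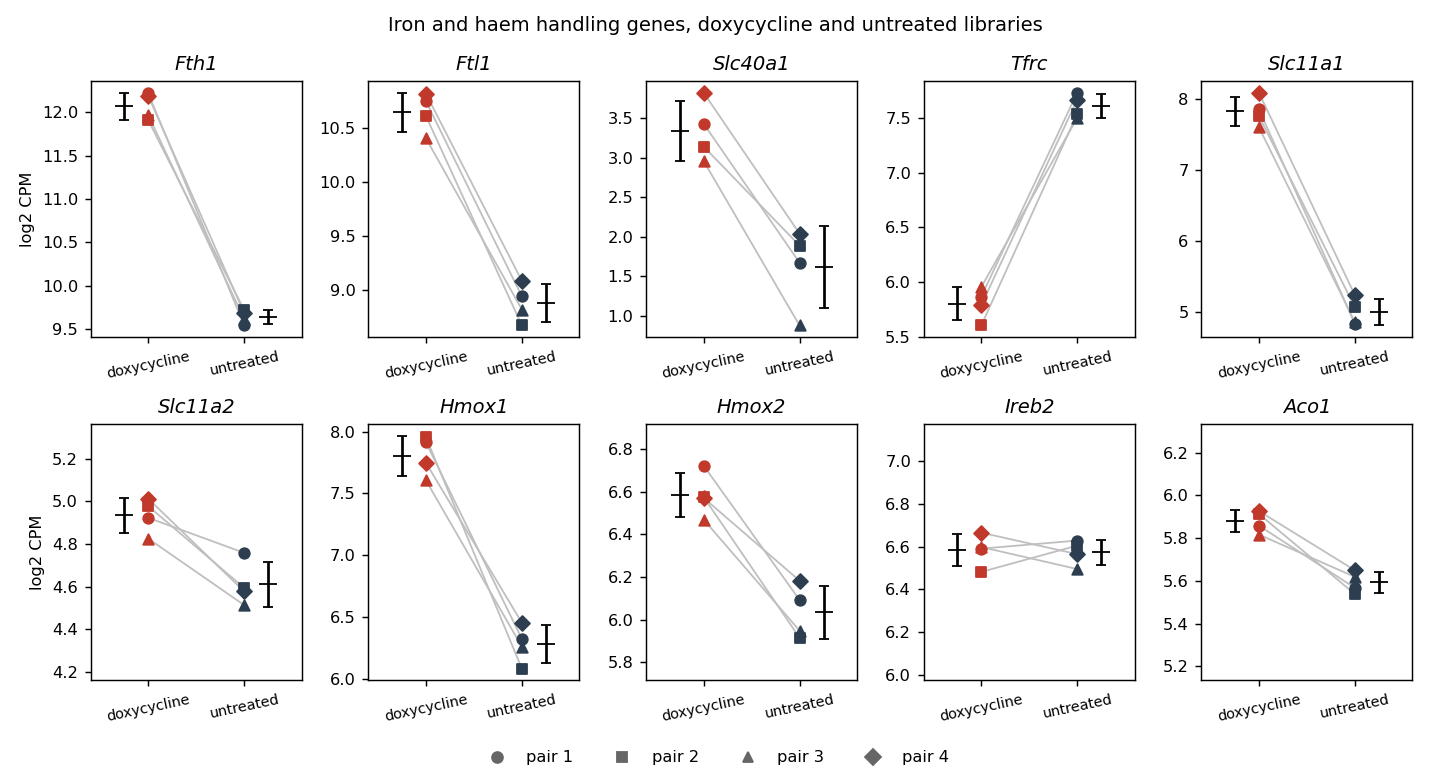
Log2 CPM of each of the 10 genes in the doxycycline libraries (left in each panel, red) and the untreated libraries (right, dark blue), with a marker shape and a grey line for each of the 4 pairs and a black bar for the mean ± SD (n = 4 each); panels have their own axes. Tfrc falls in all 4 pairs, Ireb2 lies between 89.3 and 101 CPM in every library, and the other 8 genes are higher in the doxycycline library of every pair.

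Per kilobase of exon, the order of the members differed between the groups. Exons were joined over all annotated transcripts of a gene, which can exceed the length of the transcript in use, so the order between genes is approximate. In doxycycline libraries Fth1 and Ftl1 came first, at 1245 ± 134 and 1206 ± 148 CPM per kilobase, and their ranges overlapped. Hmox1 followed at 128 ± 14 CPM per kilobase, then Slc11a1 at 61.9 ± 8.92 and Hmox2 at 43.4 ± 3.16. Tfrc was above Slc11a2 and Slc40a1 alone, at 9.05 ± 0.918 CPM per kilobase, overlapping Ireb2 at 10.1 ± 0.529. In untreated libraries Ftl1 was above Fth1, at 352 ± 43.0 and 231 ± 12.3 CPM per kilobase, Tfrc followed Hmox1 at 31.6 ± 2.39, overlapping Hmox2 at 29.6 ± 2.59, and Slc11a1 came after Aco1 and Ireb2 at 8.64 ± 1.16, overlapping Ireb2 (SD, n = 4 in each group). Slc11a2 and Slc40a1 were the lowest in both groups, with Slc40a1 below Slc11a2. Because the Ftl1 row holds only a part of the light-chain reads, the order of Fth1 and Ftl1 rests on how the reads were split. It also rests on the lengths used, 3469 bases for Fth1 and 1340 bases for Ftl1. Without division by length, Fth1 was above the Ftl1 row in untreated libraries too, at 800 ± 42.8 and 472 ± 57.6 CPM.

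Ratios between members within a library do not depend on how libraries were scaled. For 7 ratios in each of the 2 comparisons, log2 ratios were compared with exact two-sided permutation tests, 14 in all. Each of the 7 ratios separated the doxycycline from the untreated libraries, with the smallest exact p that 4 libraries against 4 allow, 0.0286. The adjusted p was 0.0571, the lowest that these 14 tests allow, so no ratio could have passed 0.05 whatever its values. Groups were apart for many single genes too, 28.9% wholly higher and 31.1% wholly lower in doxycycline libraries. How often ratios of other genes separate the groups was not computed, so the separation is not particular to these ratios. Tfrc over Fth1 was 0.0118 to 0.0155 in doxycycline libraries, against 0.220 to 0.284 in untreated libraries, a log2 difference of -4.23. This ratio of the uptake receptor to the storage protein had the largest difference of the 7, which follows from the opposite changes of Tfrc and Fth1 given above. Tfrc over Slc40a1, receptor over exporter, was 3.90 to 7.97 in doxycycline libraries, against 49.4 to 98.4 in untreated libraries. Tfrc over Slc11a2, which act in the same uptake route, was 1.54 to 2.19 in doxycycline libraries, against 7.67 to 8.51 in untreated libraries.

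Within each gene pair the 2 members also changed unequally. Slc11a1 over Slc11a2 was 6.87 to 8.47 in doxycycline libraries, against 1.05 to 1.57 in untreated libraries. Hmox1 over Hmox2 was 2.20 to 2.60 in doxycycline libraries, against 1.12 to 1.24 in untreated libraries. Fth1 over the Ftl1 row was 2.45 to 2.94 in doxycycline libraries, against 1.52 to 2.08 in untreated libraries, and over the summed light-chain rows 0.608 to 0.701 in doxycycline libraries, against 0.368 to 0.504 in untreated libraries, so the groups were apart with either denominator. Ireb2 over Aco1 was 1.48 to 1.72 in doxycycline libraries, against 1.84 to 2.09 in untreated libraries, the smallest difference of the 7 at -0.28 on the log2 scale.

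**Figure D2:**
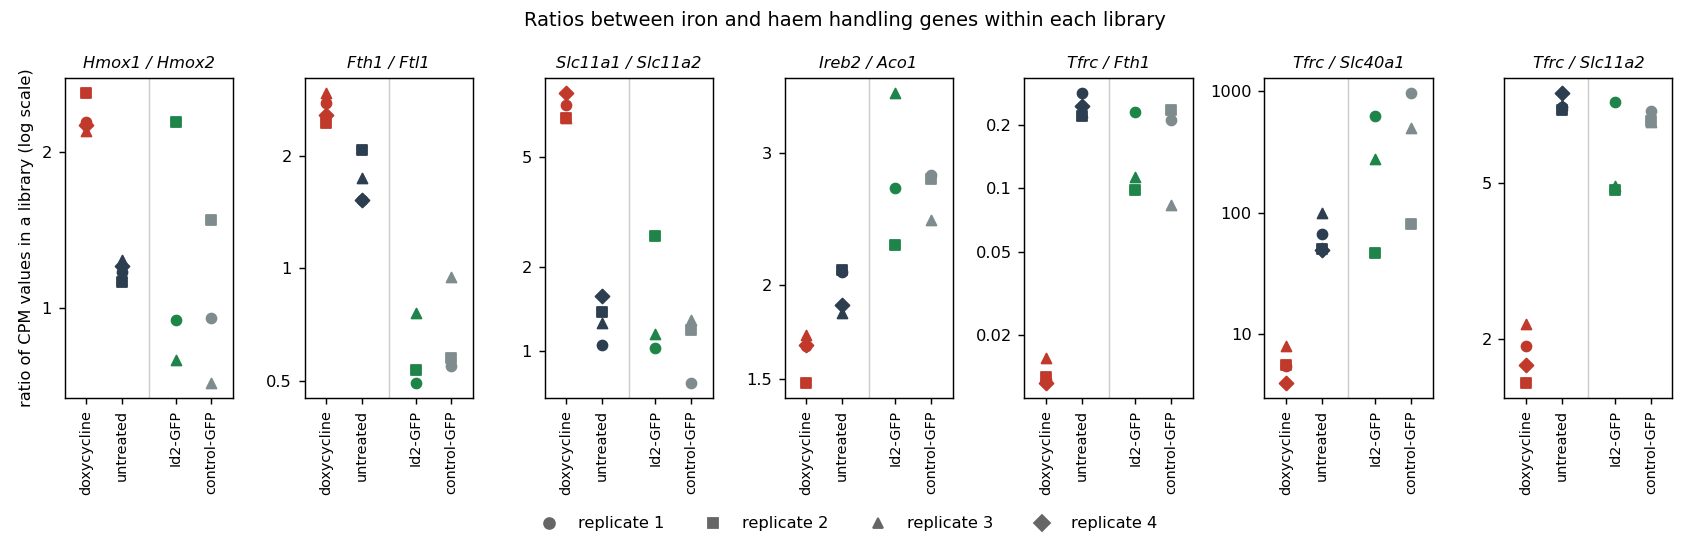
Ratio of CPM values of 2 members within each library on a log axis, in doxycycline (red), untreated (dark blue), Id2-GFP (green) and control-GFP (grey) libraries, with a marker shape for each replicate number; panels have their own axes. In all 7 panels the 4 doxycycline libraries are apart from the 4 untreated ones, and how often ratios of other genes are so was not computed. The 3 Id2-GFP libraries overlap the 3 control-GFP ones, and the 2 sets were normalized apart.

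Other genes of iron and haem metabolism were split between higher and lower after doxycycline. Over 8 further lists, 88 of 108 listed symbols were in the table, and some genes were listed under both an older and a newer symbol. Of the 88, 32 rose, 29 fell and 27 did not pass, with a median change of 0.05. With library totals, 25 of the 88 rose and 41 fell. The shares that passed were near those of the whole table, given above. The 3 enzymes listed for haem breakdown downstream of or alongside the haem oxygenases all rose. Blvrb, a biliverdin reductase, averaged 85.2 ± 12.5 CPM in doxycycline libraries, against 19.5 ± 0.874 CPM in untreated libraries (change 2.12 ± 0.10, adjusted p = 3.5e-07). Por, which passes electrons to haem oxygenase, rose by 0.79 ± 0.11 and Blvra, the other biliverdin reductase, by 0.63 ± 0.10. These 3 genes kept their direction and their call with library totals.

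Among 11 measured genes of iron and haem uptake, 5 rose and 2 fell, with a median of 0.22 (-0.02 with library totals). Beside the counts of each list stand the shares over all genes, of which 31.3% rose and 33.8% fell. Lrp1, the receptor for haemopexin-bound haem among many ligands, averaged 1389 ± 187 CPM in doxycycline libraries, against 198 ± 46.2 CPM in untreated libraries (change 2.83 ± 0.15, adjusted p = 6.8e-07). Mcoln1, a lysosomal cation channel, rose by 0.97 ± 0.08, and Slc39a14, a transporter of iron not bound to transferrin, by 0.71 ± 0.08. Of 11 listed genes of export and its control, 2 were in the table and both rose. Hfe, which binds transferrin receptor 1, averaged 17.3 ± 4.78 CPM in doxycycline libraries, against 7.20 ± 1.32 CPM in untreated libraries, and Cp, a ferroxidase, averaged 1.29 ± 0.446 CPM in doxycycline libraries, against 0.405 ± 0.104 CPM in untreated libraries. Of 7 genes for ferritin turnover and iron chaperones, 5 fell and 1 rose (5 and 0 with library totals). The falls included the chaperones Pcbp1, by 0.18 ± 0.04, and Bola2, by 0.35 ± 0.09. Pcbp3 fell by 1.73 ± 0.53 from a low level, with 0.372 ± 0.181 CPM in doxycycline libraries, against 1.43 ± 1.05 CPM in untreated libraries, and its groups overlapped.

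Among genes for the use of iron, those of cluster assembly fell more often than they rose. Of 23 measured genes of mitochondrial iron import and of iron-sulfur cluster assembly in mitochondria and cytosol, 13 fell and 3 rose, with a median of -0.19 (17 and 1, and -0.43, with library totals). For all genes 33.8% fell and 31.3% rose, with a median of -0.03. With library totals the median of all genes was -0.27, and the share of all genes that fell was larger. Hspa9, the mitochondrial chaperone of cluster transfer, averaged 249 ± 7.72 CPM in doxycycline libraries, against 367 ± 10.4 CPM in untreated libraries (change -0.56 ± 0.04, adjusted p = 3.3e-06), and Ciapin1, of the cytosolic assembly route, fell by 0.65 ± 0.05. Of 14 measured genes of haem synthesis, 4 fell, 2 rose and 8 did not pass, with a median of -0.03, that of all genes (8 fell and 1 rose, with a median of -0.27, with library totals). Abcb6, a porphyrin transporter, fell by 0.71 ± 0.08, and Slc25a38, the mitochondrial glycine carrier, rose by 0.67 ± 0.13.

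Regulators of iron and haem genes changed in both directions. Of 15 measured, 7 rose and 4 fell (5 and 5 with library totals). Among all genes 31.3% rose and 33.8% fell, so passing in both directions was not particular to regulators. Nfe2l2, which encodes the transcription factor NRF2, averaged 226 ± 14.7 CPM in doxycycline libraries, against 105 ± 5.17 CPM in untreated libraries (change 1.11 ± 0.06, adjusted p = 5.7e-07). Fbxl5, the ubiquitin ligase subunit that marks IRP2 for degradation in iron-replete cells, averaged 102 ± 7.26 CPM in doxycycline libraries, against 58.4 ± 3.42 CPM in untreated libraries (change 0.80 ± 0.06, adjusted p = 4.3e-06). Arnt, the partner of hypoxia-inducible factors, rose by 0.44 ± 0.04. Of 13 measured NRF2 targets other than the members, 9 rose and 1 fell, with a median of 0.51 (8 and 3, and 0.27, with library totals). G6pdx, of the pentose phosphate pathway, rose by 0.60 ± 0.08 and Gpx4, the lipid peroxidase, by 0.37 ± 0.05, while Gclc, the catalytic subunit for glutathione synthesis, fell by 0.43 ± 0.04.

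**Figure D3:**
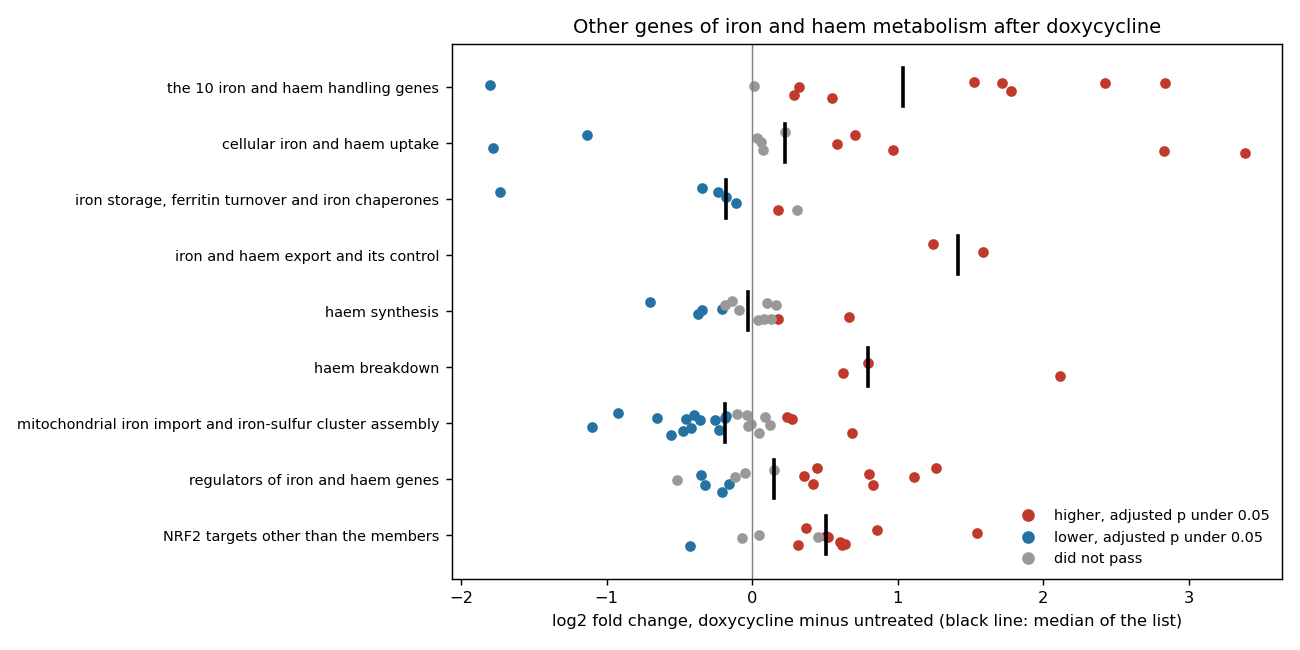
Log2 change (doxycycline minus untreated) of each measured gene in the 10 members and in 8 further lists of iron and haem metabolism; colour shows whether its adjusted p was under 0.05 and a black line the median of each list. The members' median is 1.04, those of the other lists run from -0.19 for iron-sulfur cluster assembly to 1.41 for the 2 measured export genes.

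The genes nearest to Slc11a1 and Tfrc in pattern were sought by Euclidean distance over the 14 libraries, with log2 CPM centred per gene within each table, among 12655 other genes. Nearest to Slc11a1 were Psap, the precursor of lysosomal saposins, at 0.560, Slc15a3, a lysosomal peptide transporter, at 0.616, and Rin2 at 0.679. Their changes after doxycycline were 2.80, 3.01 and 2.64, beside 2.84 for Slc11a1. Nearest to Tfrc were Ppm1e at 0.744, Pecam1, an adhesion gene and 1 of the stromal markers above, at 0.8292 and the exonuclease gene Exo1 at 0.8294, with changes of -1.69, -1.74 and -1.40. The doxycycline and untreated libraries were among those used for the distances, so similar changes follow from how these genes were picked. The libraries of a table also share their normalization, so these distances are a description.

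**Figure D4:**
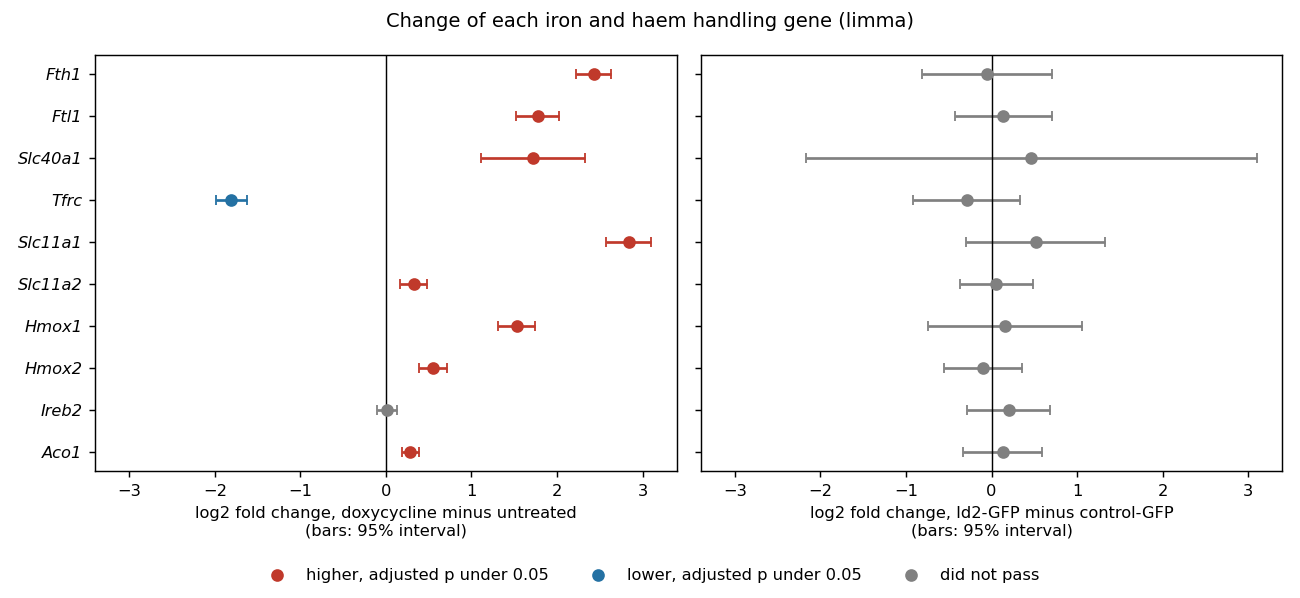
Log2 change of each of the 10 genes with its 95% interval from limma, for doxycycline minus untreated (left) and Id2-GFP minus control-GFP (right). On the left 8 intervals lie above 0 and that of Tfrc below, from -1.99 to -1.62; on the right all 10 intervals span 0, the widest being that of Slc40a1, from -2.17 to 3.11.

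In cells transduced with Id2, none of the 10 members passed the test. Of all genes tested, 0.0137% passed, which were Id2 itself and Gm6175, both higher in Id2-GFP libraries. At an unadjusted p under 0.05 limma gave 0 of the 10 members, against 2.45% of all genes, and with the replicate number as a block 1 member, Slc11a1, against 6.28% of all genes. Adjusted over all genes, 0 members and 0.240% of all genes passed with the block. The smallest adjusted p of a member was 0.998, and 0.756 with the block, for Slc11a1. The groups overlapped for all 10 members, where 6.95% of all genes had groups that did not. The members' median difference was 0.13, against -0.03 for all genes. These comparisons rest on 3 libraries per group, and the SE of the differences was 0.18 to 1.13 on the log2 scale, against 0.05 to 0.27 in the doxycycline set.

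In the transduced set the heavy chain stood out in 1 library, and the light chain did not. Fth1 had 808, 973 and 936 CPM in Id2-GFP replicates 1 to 3, against 755, 700.1 and 1563 CPM in control-GFP replicates 1 to 3. The highest value of the set was in control-GFP replicate 3, the library with the high sum of erythroid markers. Whether erythroid cells were in that library, and any part of theirs in the value, was not tested. The difference was -0.06 ± 0.32 (95% interval -0.81 to 0.70), and 0.31 without that library. Ftl1 had 1635, 1824 and 1228 CPM in Id2-GFP libraries, against 1375, 1215 and 1649 CPM in control-GFP libraries. The groups interleaved, with a difference of 0.14 ± 0.24. In this table the Ftl1 row held 60.9% to 62.0% of the reads summed over Ftl1 and 7 copies in Id2-GFP libraries and 61.1% to 62.0% in control-GFP libraries, whereas in the doxycycline table, over Ftl1 and 5 copies, it held 23.8% to 24.8% in doxycycline libraries and 24.2% to 24.3% in untreated libraries. The split of reads between copies therefore differed between the tables, and levels of Ftl1 were not compared across them.

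Hmox1 and Slc11a1 varied widely between libraries of the same group, and Tfrc did so among Id2-GFP libraries. Tfrc had 186, 95.5 and 106 CPM in Id2-GFP libraries, against 159.8, 165 and 131 CPM in control-GFP libraries. It was lower with Id2 in pairs 2 and 3 and higher in pair 1, and the difference was -0.29 ± 0.27 (95% interval -0.92 to 0.34). Without pair 2 it was -0.0456 and without pair 1 -0.55. Slc11a1 had 23.6, 51.5 and 24.6 CPM in Id2-GFP libraries, against 16.04, 27.0 and 23.6 CPM in control-GFP libraries. It was higher in the Id2-GFP library of all 3 pairs, by 0.56, 0.93 and 0.06 on the log2 scale, and the difference was 0.52 ± 0.35. Without pair 2 it was 0.31, and without Id2-GFP replicate 2 alone 0.15. Hmox1 had 53.3, 121 and 42.8 CPM in Id2-GFP libraries, against 49.1, 75.8 and 53.5 CPM in control-GFP libraries. Replicate 2 was the highest library of its group for Hmox1, Slc11a1 and Slc40a1, in both groups, and without that pair the difference of Hmox1 was -0.10 in place of 0.16.

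The remaining members gave differences within their spread. Slc40a1 was near the limit of detection, with 4, 29 and 5 reads in Id2-GFP libraries, against 2, 29 and 3 reads in control-GFP libraries, where the detection floor is 3 reads per library. The fitted difference of 0.47 had an SE of 1.13 and depends on the offset of 0.5 reads, so no fold is given. Hmox2 had 56.2, 52.8 and 54.0 CPM in Id2-GFP libraries, against 51.3, 51.2 and 74.8 CPM in control-GFP libraries, a difference of -0.10 ± 0.20. Slc11a2 ranged over 19.9 to 23.0 CPM in Id2-GFP libraries, against 18.2 to 22.7 CPM in control-GFP libraries. Ireb2 ranged over 112 to 135 CPM in Id2-GFP libraries, against 81.2 to 126 CPM in control-GFP libraries, the lowest again in control-GFP replicate 3. Aco1 was higher in the Id2-GFP library of each pair, by 0.09, 0.13 and 0.17, with a difference of 0.13 ± 0.20.

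**Figure D5:**
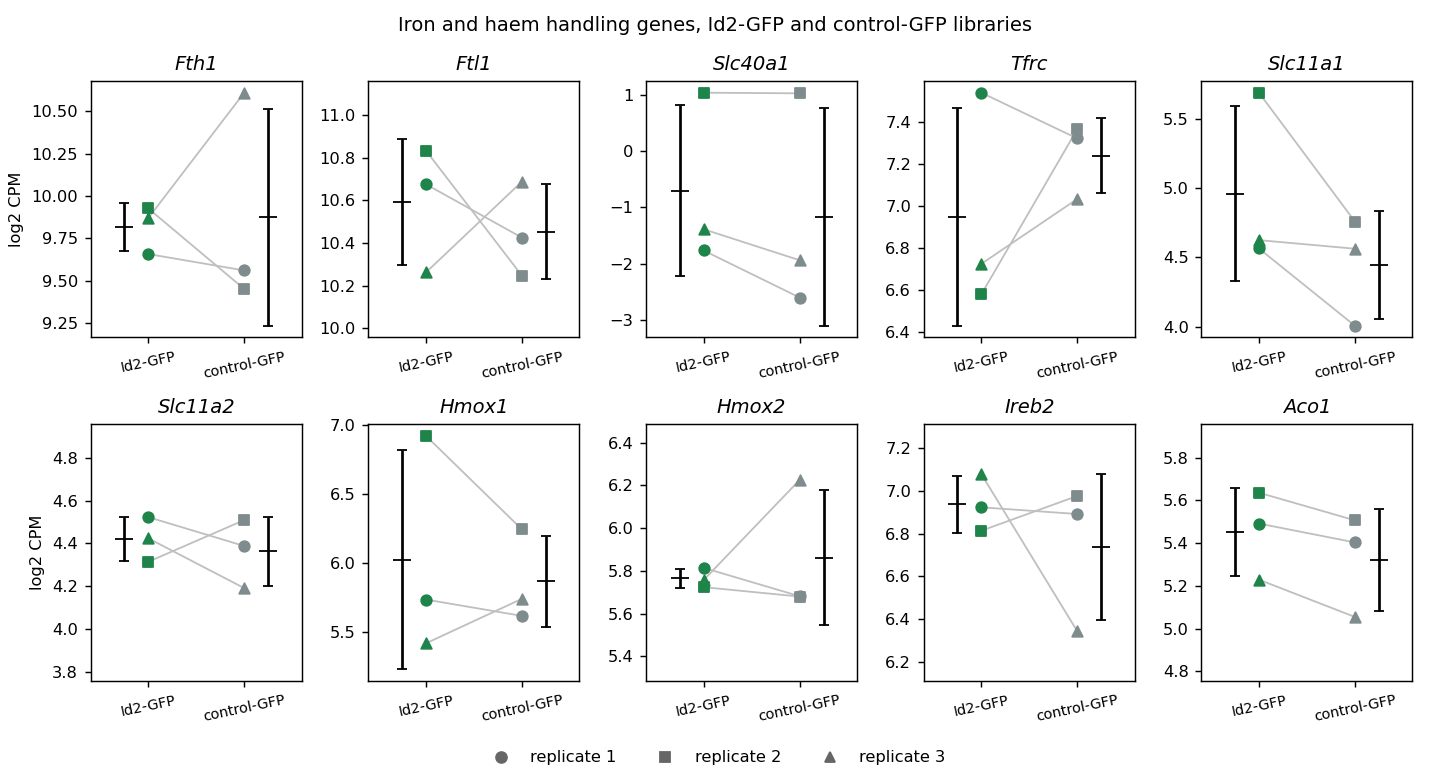
Log2 CPM of each of the 10 genes in Id2-GFP libraries (left in each panel, green) and control-GFP libraries (right, grey), with a marker shape and a grey line for each replicate number and a black bar for the mean ± SD (n = 3 each); panels have their own axes. The groups overlap in all 10 panels, control-GFP replicate 3 is the highest library for Fth1 (1563 CPM) and the lowest for Ireb2 (81.2 CPM), and replicate 2 is the highest of both groups for Slc40a1.

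Ratios between members also overlapped between Id2-GFP and control-GFP libraries. Over the 7 ratios the exact permutation p was 0.4 to 0.9, where 3 libraries against 3 allow no p below 0.1, and the adjusted p was 0.7 to 0.9. Tfrc over Fth1 was 0.0982 to 0.230 in Id2-GFP libraries, against 0.0837 to 0.235 in control-GFP libraries. Slc11a1 over Slc11a2 was 1.03 to 2.59 in Id2-GFP libraries, against 0.768 to 1.29 in control-GFP libraries. Of the 8 further lists, 89 genes were measured and 0 passed, with a median of -0.05, and 2 had an unadjusted p under 0.05. Slc25a37, the mitochondrial iron importer mitoferrin 1, averaged 180.4 ± 24.1 CPM in Id2-GFP libraries, against 119 ± 18.6 CPM in control-GFP libraries (difference 0.60 ± 0.19, adjusted p = 0.998). Mafk, a small partner of NRF2 and BACH1, averaged 31.1 ± 4.87 CPM in Id2-GFP libraries, against 54.7 ± 15.9 CPM in control-GFP libraries (difference -0.79 ± 0.24, adjusted p = 0.998). Monocyte and macrophage markers summed to 2533 to 3417 CPM in Id2-GFP libraries, against 2549 to 3617 CPM in control-GFP libraries. Red pulp macrophage markers summed to 114 to 204 CPM in Id2-GFP libraries, against 54.5 to 154 CPM in control-GFP libraries, and neutrophil markers to 316 to 481 CPM in Id2-GFP libraries, against 375 to 391 CPM in control-GFP libraries. The 2 measured stromal markers, Pecam1 and Pdgfrb, summed to 216 to 227 CPM in Id2-GFP libraries, against 277 to 382 CPM in control-GFP libraries, and those groups did not overlap. No marker of the lists passed, and the part of these cells in the members' values was not tested.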

How the data were processed

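RNA was extracted with Trizol and libraries were made with an Illumina TruSeq V2 kit, per the labels' protocols. Per the submitters' processing notes, TopHat2, HTSeq, limma and CASAVA 1.8.2 were used with the build mm10. The role of each tool, the annotation, the strand setting and the treatment of reads that fit several places are not given in the sources used here. The authors deposited log2 values in a table for each set, normalized apart. The values show that these are log2 CPM with 0.5 reads added and library sizes scaled: undoing both gave whole reads, to within 0.01, for 100% of values. Of the 13419 entries for the doxycycline set, 13 repeated another and were dropped. The detection floor of 3 reads per library covers counting error only.

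Each table was fitted whole with limma 3.58.1 in R 4.3.3 (eBayes with a variance trend, two-sided), doxycycline against untreated and Id2-GFP against control-GFP, with Benjamini-Hochberg adjustment over all its genes, and its 95% intervals rest on the spread between libraries. Log2 changes carry the offset of 0.5 reads, which understates the change of low genes. Within-library ratios were compared with exact permutation tests, adjusted over 14 tests. The scripts were tested on simulated data. Same-numbered libraries deviated together (correlations of deviations from group means of 0.514, 0.552, 0.483 and 0.454 in the doxycycline set and 0.472, 0.581 and 0.557 in the other). They were taken as pairs for the pair differences and the replicate block, whereas the main fit, with its SEs, intervals and p-values, leaves the pairs out. With the block, SEs of members in the Id2-GFP comparison were smaller for some (0.49 in place of 1.13 for Slc40a1) and larger for others (0.29 in place of 0.24 for Ftl1). In the transduced set the titles hold the numbers, and in the doxycycline set the numbers 1 to 4 stand for the labels that titles of both groups share. The labels do not say whether replicates are separate animals, so p-values reflect only the spread between these samples, part of which may be technical. The alternatives were the replicate block, leaving out each library or pair, library totals, quantile normalization, 1 CPM added, a mean log2 CPM of at least 2, no variance trend, voom weights and, chosen after seeing the data, Ftl1 summed with its copies.

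The members, lists, ratios and the rule for named genes were chosen with earlier results of these data known. All 10 members are named, with up to 3 genes of each further list by smallest p, the 3 genes nearest in pattern to the members that rose and fell most, near copies, and the most abundant gene of a marker list. Cdip1, Gm6175, Spic and Cd163 were named after their values were seen. Some genes under the rule are not reported here. Copies were found with blastn 2.17.0. Coordinates and exon lengths are from GENCODE M21 on GRCm38, the assembly that mm10 denotes. Tables were made in Python 3.11.15 with pandas 2.3.3 and numpy 2.4.6, and plots with matplotlib 3.10.9.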

Additional observations from a re-analysis of the deposited data

How the results depend on the processing

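After doxycycline, Hmox1, Hmox2, Fth1, Ftl1, Tfrc, Slc40a1 and Slc11a1 kept their direction and their call under every alternative run. Library totals ended the calls of Slc11a2 (0.0834) and Aco1 (0.0457) and turned Ireb2 to -0.23, and quantile normalization gave -0.0864 for Ireb2, whose leave-one-out values ran from -0.0202 to 0.0553. Library totals lowered all genes by the same amount, shown by the medians given with the results. The replicate block changed no call of a member in either set, and of the further lists 36 genes rose and 28 fell with it after doxycycline. In the Id2-GFP comparison the count over all genes was 2, and 35 with the replicate block (16 higher and 19 lower), 1 among genes with a mean log2 CPM of at least 2, and 0 to 3 with libraries left out. No member passed there under any alternative run, and Slc40a1 has no value under that filter. Directions of members turned with single libraries or pairs left out, with ranges of -0.29 to 0.46 for Hmox1, -0.212 to 0.0885 for Hmox2, -0.32 to 0.31 for Fth1, -0.0876 to 0.418 for Ftl1, -0.41 to 1.57 for Slc40a1, -0.0301 to 0.184 for Slc11a2, -0.0657 to 0.383 for Ireb2 and -0.0028 to 0.24 for Aco1, and Fth1 was 0.0876 with quantile normalization. Slc11a1 and Tfrc kept their direction there, with leave-one-out values of 0.15 to 0.74 for Slc11a1 and -0.59 to -0.0456 for Tfrc. Leaving out pairs gave -0.57 to 0.28 for the log2 ratio of Tfrc over Fth1 and -0.17 to 0.25 for Ireb2 over Aco1. Causes were not tested. With 3 libraries per group, the main fit, which leaves the pairs out, does not exclude differences within the intervals given in the report. Those intervals are not adjusted over genes, whereas the calls are, so they are not limits of detection.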
